A study of Saccharomyces cerevisiae with 7 samples.

Results

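The hexose transporter genes of budding yeast (Saccharomyces cerevisiae) were followed through a meiotic time course of a strain with the spo11-Y135F allele, whose product is the meiotic double-strand break protein with its catalytic tyrosine exchanged. The 10 genes are HXT1 (YHR094C), HXT2 (YMR011W), HXT3 (YDR345C), HXT4 (YHR092C), HXT5 (YHR096C), HXT6 (YDR343C), HXT7 (YDR342C), HXT10 (YFL011W), HXT14 (YNL318C) and the galactose permease gene GAL2 (YLR081W). They were chosen by gene name, with their log2 ratios to 0 h at all times already known, out of 6141 open reading frames in the table. All values of the members are therefore descriptions without a test. All 10 have a row, and 9 have a value at all 7 times; HXT4 has none at 6 h. Of all open reading frames, 5585 have a value at all 7 times, and "all genes" refers to these.

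Each of the times 1, 2, 3, 4, 5, 6 and 8 h has 1 array, and all 7 carry the same mutant allele. Every sample title gives the mutant, whereas 2 descriptions, those of 1 and 2 h, leave it out. No ploidy, strain background or medium is named in the labels. Cy5-labelled cDNA of the time point was hybridised with a Cy3-labelled mixture of mRNA from the whole course, and each deposited value is the log2 of that ratio relative to 0 h. A value of 1 is a transcript share 2-fold above, and -1 a share 2-fold below, that at 0 h. The values compare a gene with itself over time and do not rank the transcript levels of different genes. The duplicate cultures that the study's design mentions appear as 1 column per time, so no value has a replicate spread. Series of values "in order of time" are those of 1, 2, 3, 4, 5, 6 and 8 h. Per the design text, every value of a gene contains a 0 h measurement, and an error in it would move all of them together. The median of all genes was lowest at 6 h (-0.15) and highest at 1 h (0.03), and the narrowest and widest columns were those of 2 and 6 h (standard deviations 0.84 and 1.49). Markers of meiosis were far above 0 h: IME1, the regulator of entry, was at 3.50 at 3 h, NDT80, the activator of middle genes, reached 7.47 at 6 h, and DIT1 of the spore wall had 8.52 at 8 h.

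Hexose transporters are membrane proteins that let sugars pass down their gradient into the cell, and uptake through them comes before glycolysis. Yeast expresses different members according to the glucose supply: low-affinity carriers such as Hxt1 and Hxt3 serve when glucose is plentiful, and high-affinity carriers such as Hxt2, Hxt6 and Hxt7 when it is scarce. The repressor Rgt1 holds many HXT genes off without glucose, and the Mig1 repressor holds the high-affinity genes off when glucose is high. Sporulation is commonly induced in acetate medium without glucose.

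The highest and the lowest member lay further apart on the later arrays than on the first. HXT14 was the highest member at 2, 4, 5, 6 and 8 h and reached 9.05 at 6 h, and HXT10 reached 5.03 at 8 h. HXT2, HXT4 and HXT1 lay below 0 h at every time measured, and HXT7 at 6 of 7 times. HXT6 and GAL2 never were 2-fold from 0 h. At 1 h the distance between the highest and the lowest member was 2.12 log2 units. It was 5.73 at 4 h, 8.71 at 5 h, 12.97 at 6 h over 9 members and 8.23 at 8 h. The columns of all genes were also wider then, with standard deviations of 0.85 at 1 h and 1.06, 1.36, 1.49 and 1.12 at 4, 5, 6 and 8 h. The median member stayed close to 0 h throughout, between -0.37 at 4 h and 0.07 at 6 h, where the medians of all genes were -0.04 and -0.15.

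**Figure D1:**
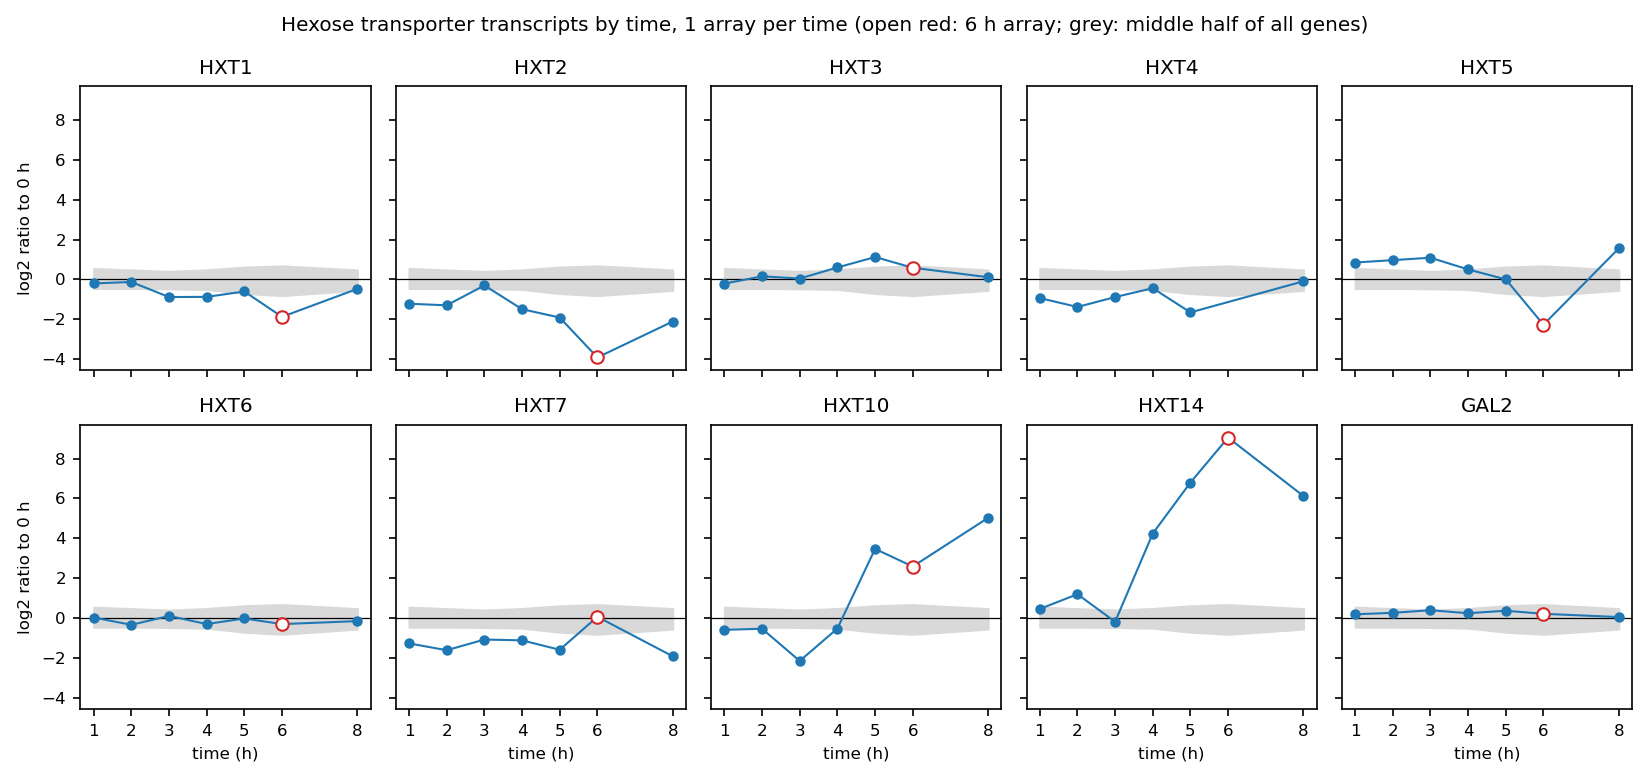
The log2 ratio to 0 h of each of the 10 genes is plotted against time in hours, 1 point per array. Open red points mark the 6 h array, and the grey band runs from the lower to the upper quartile of all genes. HXT14 reaches 9.05 and HXT10 5.03, HXT2 is lowest with -3.92, and HXT6 and GAL2 stay within the band.

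Over the whole course 6 of the 10 members were at least 2-fold below 0 h at some time (HXT1, HXT2, HXT4, HXT5, HXT7 and HXT10), as were 35.2% of all genes. On the upper side 4 members were at least 2-fold from 0 h on some array (HXT3, HXT5, HXT10 and HXT14), as were 34.9% of all genes. HXT5 and HXT10 were in both groups at different times. At 1 h the members at least 2-fold below were HXT2 and HXT7 (9.44% of all genes were), at 2 h HXT2, HXT4 and HXT7 (9.35%), at 3 h HXT7 and HXT10 (8.43%) and at 4 h HXT2 and HXT7 (10.7%). At 5 h they were HXT2, HXT4 and HXT7 (17.4%), at 6 h HXT1, HXT2 and HXT5 out of 9 members (19.5%), and at 8 h HXT2 and HXT7 (10.8%). Above 0 h by at least 2-fold were 0 members at 1 h (10.8% of all genes), HXT14 at 2 h (8.68%), HXT5 at 3 h (7.68%) and HXT14 at 4 h (11.5%). At 5 h they were HXT3, HXT10 and HXT14 (16.3%), at 6 h HXT10 and HXT14 (18.9%), and at 8 h HXT5, HXT10 and HXT14 (12.3%). Since the members were chosen with these values known, nothing is read from the shares.

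HXT14 and HXT10 are family members with little known use in growing cells. HXT14 was at 0.46, 1.20, -0.19, 4.24, 6.80, 9.05 and 6.12 in order of time. It was thus no further than 1.20 from 0 h until 3 h and far above it on the 4 later arrays. At 6 h its value was 531-fold above 0 h and the 3rd highest among 5585 genes; it ranked 14th at 5 h and 18th at 8 h. The step from 3 to 4 h was 4.43 (21.5-fold), the 11th largest increase of all genes over that hour. The difference from 6 to 8 h was -2.93 (7.62-fold). After quantile normalization between columns the 6 h value was 6.31 and that of 5 h 5.27. A straight line over 7 times had a slope of 1.20 ± 0.28 (SE) log2 per hour, given without a test.

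HXT10 was at -0.59, -0.54, -2.15, -0.52, 3.47, 2.59 and 5.03 in order of time. It lay below 0 h on the first 4 arrays and at least 2-fold above on the last 3, the first of them an hour after the 4 h array on which HXT14 stood high. The 3 h value was the 83rd lowest of all genes. The step from 4 to 5 h, 3.99 or 15.9-fold, was the largest increase of all 5585 genes in that hour as deposited. Between its lowest and highest value lay 7.18 log2 units (145-fold), against 9.24 for HXT14. After quantile normalization the 8 h value was 4.07. Its slope was 0.94 ± 0.19 (SE) log2 per hour.

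The courses most like these were found by the root mean square (RMS) difference over 7 times. Only genes with all 7 values and an entry in the reference table were searched, without the members. HXT14 was nearest to SPS1, a sporulation kinase gene (RMS 0.55, Pearson r = 0.99), SPO19, a spore wall gene (RMS 0.58, r = 0.99), and PIR5, a sporulation cell wall gene (RMS 0.65, r = 0.99). SPS1 was at 0.23, 4.54 and 8.49 at 3, 4 and 6 h, beside -0.19, 4.24 and 9.05 for HXT14. HXT10 had no course as near among the genes searched. The closest were CTT1, the cytosolic catalase gene (RMS 0.89, r = 0.94), GAT4, a GATA-family regulator (RMS 0.91, r = 0.93), and SOL1 (RMS 0.92, r = 0.95). GAT4 was at -2.38 at 3 h and 3.15 at 5 h, beside -2.15 and 3.47 for HXT10. Without the 6 h array, the RMS from HXT10 was 0.59 for SOL1, 0.67 for GAT4 and 0.93 for CTT1. That from HXT14 was then 0.55 for SPS1, 0.55 for SPO19 and 0.62 for PIR5. These are descriptions over 7 arrays, which follow each other in time and share 1 mixed reference.

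**Figure D2:**
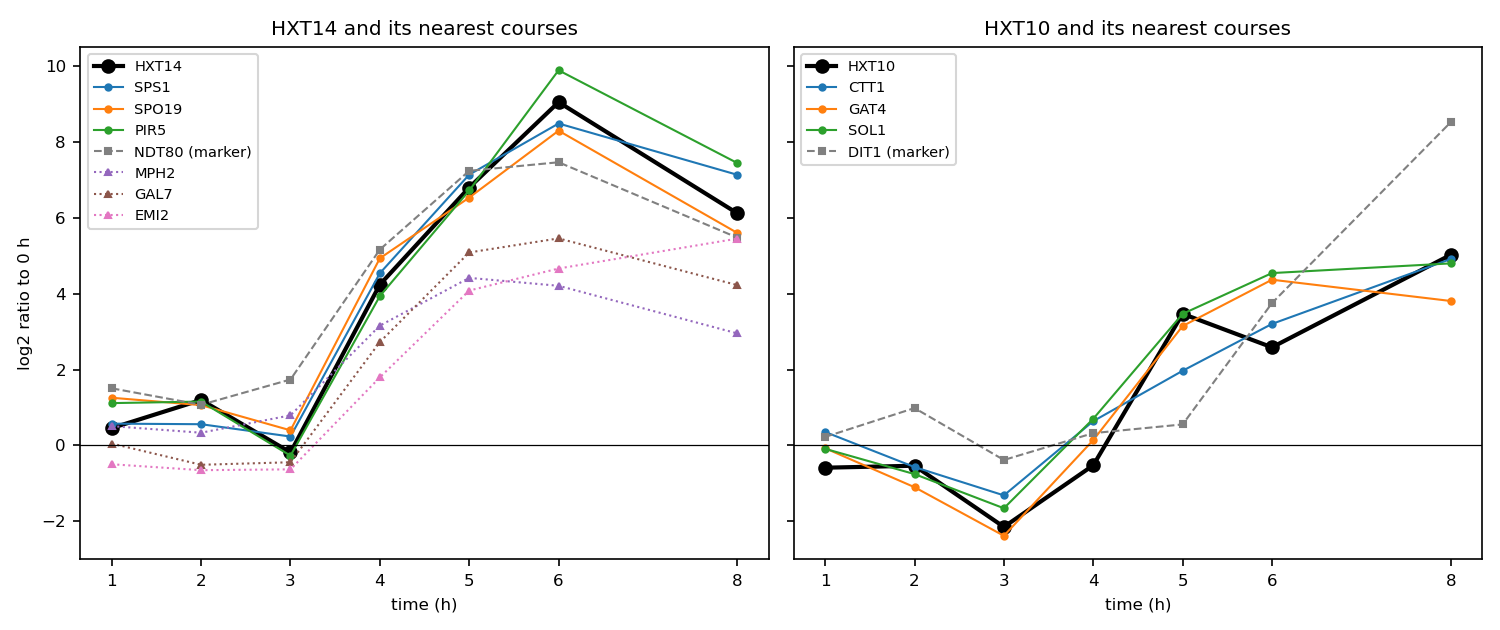
The log2 ratio to 0 h is plotted against time in hours for HXT14 (left) and HXT10 (right) with the 3 nearest courses of each. Dashed lines are the markers NDT80 and DIT1, and dotted lines on the left are MPH2, GAL7 and EMI2. HXT14 goes from -0.19 at 3 h to 4.24 at 4 h, and HXT10 from -0.52 at 4 h to 3.47 at 5 h; DIT1 is at 0.55 at 5 h and 8.52 at 8 h.

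The low-affinity carriers HXT1 and HXT3 lay on opposite sides of 0 h on 6 of 7 arrays. HXT1, which growing cells use at high glucose, was at -0.20, -0.13, -0.88, -0.88, -0.61, -1.88 and -0.48 in order of time. Only the 6 h value was beyond 2-fold. HXT3, expressed over a wide range of glucose supply, was at -0.21, 0.15, 0.04, 0.60, 1.12, 0.59 and 0.11 in order of time. Its highest value, 2.18-fold above 0 h, stood between smaller positive values on both sides. The course nearest to HXT1 was that of BUB2, a mitotic exit checkpoint gene (RMS 0.23), and the one nearest to HXT3 was that of KEX2, a Golgi protease gene (RMS 0.17).

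HXT2, a carrier gene used at low glucose, had the lowest value of all members. It was at -1.22, -1.30, -0.30, -1.49, -1.91, -3.92 and -2.11 in order of time. The 6 h value was 15.1-fold below 0 h and the 21st lowest of 5585 genes, and at 8 h it was the 85th lowest. After quantile normalization the 6 h value was -3.17. The 3 h array was the exception, and the step from it to 4 h was -1.19. Its nearest courses were those of ERG5, an ergosterol synthesis gene (RMS 0.44), ENB1, a carrier of iron-enterobactin (RMS 0.46), and COM2 (RMS 0.49). HXT4, another carrier gene of low glucose, was at -0.94, -1.38, -0.89, -0.44, -1.65 and -0.09 in order of time, without 6 h. It was back near 0 h at the last time, 1.56 above its 5 h value.

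HXT6 and HXT7 are neighbouring genes for high-affinity carriers, and their coding sequences are almost the same. Their values nevertheless differed. HXT7 was at -1.27, -1.61, -1.08, -1.12, -1.59, 0.07 and -1.91 in order of time. HXT6 was at 0.03, -0.34, 0.11, -0.30, -0.02, -0.30 and -0.15 in order of time. HXT6 was higher than HXT7 on 6 of 7 arrays, by 0.82 (4 h) to 1.76 (8 h), and the difference at 6 h was -0.37. The labels name neither the array platform nor its probes, and how far each row reports its own transcript was not tested. The nearest courses were those of VEL1 for HXT6 (RMS 0.10) and ADH6, an alcohol dehydrogenase gene, for HXT7 (RMS 0.27).

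HXT5, a carrier of moderate affinity known from slowly growing and starved cells, was the highest member at 1 h and at 3 h. It was at 0.85, 0.97, 1.09, 0.50, 0.00, -2.27 and 1.56 in order of time. Every array except that of 6 h had it at or above 0 h. NDE2, a mitochondrial NADH dehydrogenase gene, had the nearest course (RMS 0.30, r = 0.98) with -1.82 at 6 h and 1.31 at 8 h, followed by SDL1 (RMS 0.53) and TRS20, a vesicle tethering gene (RMS 0.57). GAL2 was at 0.19, 0.26, 0.39, 0.24, 0.37, 0.21 and 0.05 in order of time. Its range of 0.34 was the smallest of the members, next to 0.45 for HXT6. No intensities were analysed, and a steady transcript share cannot be told apart from a spot without signal.

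The 6 h array departed from its neighbours in most members. Set against the mean of 5 and 8 h, 6 of 9 members were at least 2-fold away at 6 h, as were 20.5% of all genes. The 6 h value minus that mean was -3.05 for HXT5, -1.90 for HXT2, -1.66 for HXT10 and -1.34 for HXT1, whereas it was 2.59 for HXT14 and 1.82 for HXT7. It was -0.22 for HXT6, -0.03 for HXT3 and near 0 for GAL2. Over all genes the standard deviation of this departure was 0.81. The same departure of the 2, 3, 4 and 5 h arrays from the mean of the arrays before and after had standard deviations of 0.42, 0.51, 0.34 and 0.56, over neighbours 2 h apart rather than 3 h. In HXT14 and HXT10 the 6 h departure was not the largest: HXT14 had -2.90 at 3 h, and HXT10 had 2.44 at 5 h. At 3 h HXT10 had -1.62, slightly smaller in size than its -1.66 at 6 h. Without 6 h, 4 members rather than 6 were at least 2-fold below 0 h at some time. The share of all genes was not counted without that array, so nothing is read from this change. HXT1 was then lowest with -0.88 (3 h), HXT2 with -2.11 (8 h) and HXT5 with 0.00 (5 h). HXT7 was highest with -1.08 (3 h) and HXT14 with 6.80 (5 h). The 6 h column has values for 321 rows that are empty at all other times and lacks 50 that the others hold, HXT4 among them; whether it was processed like the rest was not tested.

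**Figure D3:**
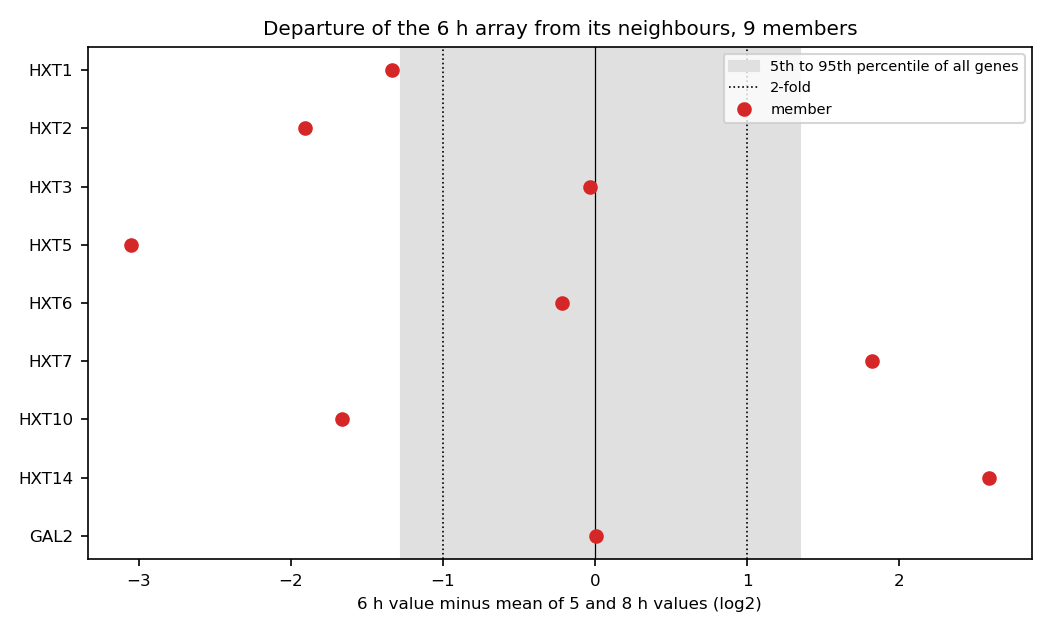
For each of the 9 members with all values, the 6 h value minus the mean of the 5 and 8 h values is plotted in log2 units. The grey area spans the 5th to 95th percentile of all genes, -1.28 to 1.35, and dotted lines mark 2-fold. HXT5, HXT2, HXT10 and HXT1 lie to the left of the grey area, and HXT7 and HXT14 to the right.

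The members did not share a common course. Over 45 pairs the median Pearson r was -0.15, with 3 pairs above 0.7 and 4 below -0.7. HXT10 and HXT14 had r = 0.82, and 0.88 without 6 h, with a difference in size of RMS 3.48. HXT2 and HXT14 ran opposite to each other with r = -0.89, and -0.88 without 6 h. Other values rested on the 6 h array. HXT1 and HXT5, which lie next to each other in the reference order, had r = 0.84 with it and 0.22 without. HXT2 and HXT5 had 0.82 and 0.14, HXT5 and HXT7 -0.87 and -0.29, and HXT1 and HXT7 -0.88 and -0.50. HXT2 and HXT7 had r = -0.57 with all arrays and 0.76 without 6 h. HXT6 and HXT7 had -0.22 and 0.29. In all, 9 of the 36 pairs with 7 values had r of another sign without that array. These are descriptions over 6 or 7 arrays that are not independent.

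**Figure D4:**
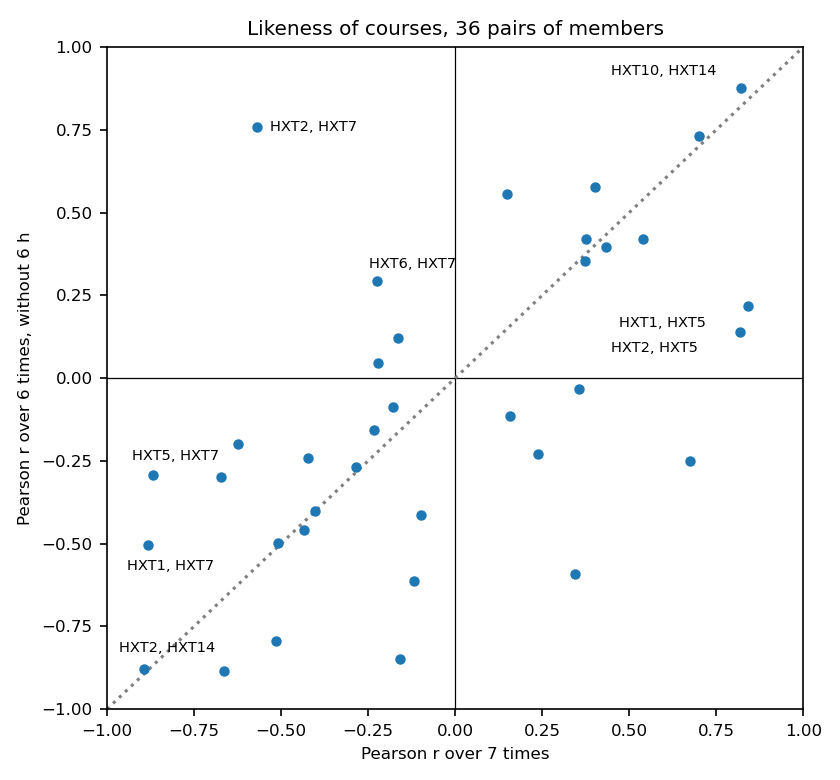
Each point is a pair of members with 7 values, with Pearson r over all 7 times on the horizontal axis and over 6 times, without 6 h, on the vertical axis. The dotted line marks equal values. HXT10 with HXT14 and HXT2 with HXT14 lie near the line, and HXT2 with HXT7 lies at -0.57 and 0.76.

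Of the 10 members 6 lie in a pair of runs in the genome, and the other 4 (HXT2, HXT10, HXT14 and GAL2) have no member beside them. In the order of the R64 reference table HXT7, HXT6 and HXT3 follow each other with YDR344C before HXT3, and HXT4, AHT1, HXT1 and HXT5 likewise form a run. YDR344C was closer to HXT3 (RMS 0.33, r = 0.77) than to HXT6 on its other side (RMS 0.81, r = -0.64). Beside HXT14, PFS2, a gene of mRNA 3' end formation, was at 1.32 at 6 h (RMS 4.59, r = 0.92), and YNL320W at 0.97 (RMS 4.66, r = 0.65). Beside HXT10, YFL012W was at -1.29 at 3 h and 2.28 at 5 h (r = 0.76), and WWM1 on the other side stayed between -0.02 and 0.86. ANY1 beside HXT2 was at 2.50 at 6 h, when HXT2 was at -3.92, and their courses had r = -0.97. The other adjacent genes with a row (AHT1, MSR1, SVF1, PAL2, YDR341C, CLU1, EMP46 and SRL2) lay between -1.41 and 1.07, both values of PAL2, which is next to HXT5. With 6 values, HXT4 entered no search for like courses.

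Other genes of hexose uptake and use were taken from 6 lists with 49 genes, of which 45 had all 7 values. On a straight line over time 1 of the 45 rose and 0 fell (limma with Benjamini-Hochberg adjustment over 5585 genes), where 1.34% of all genes rose and 0.716% fell. At an unadjusted p under 0.05, 9 of the 45 had a positive and 2 a negative slope. Of all 5585 genes, 1282 had such a p in either direction, and nothing is read from the count. The gene that rose was EMI2, a homologue of the glucokinase gene GLK1, with a slope of 1.05 ± 0.13 (SE) log2 per hour (limma adjusted p = 0.0265). EMI2 was at -0.50, -0.65, -0.63, 1.79, 4.08, 4.67 and 5.45 in order of time, with the step above 0 h between 3 and 4 h, as in HXT14. By RMS, EMI2 was nearer to HXT10 (1.34, r = 0.93) than to HXT14 (2.32, r = 0.94). Like HXT10, it was highest at 8 h. The limma adjusted p of EMI2 was 0.0658 without the 6 h array, where no gene of all passed although 1143 had an unadjusted p under 0.05. The median slope over the 45 genes was 0.08, and over all genes -0.02.

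The highest value among the other HXT genes, 2.25 for HXT17 at 6 h, was below the highest of HXT10 and of HXT14. Their median over 7 genes was 0.26 at first, 1.21 at 5 h and 0.83 at the end, 5 of 7 were 2-fold or more above 0 h on some array (34.9% of all genes were) and 0 of 7 as far below (35.2%), and 0 passed the slope test, with a median slope of 0.11. HXT13 came after HXT17 with 1.77 at 5 h; HXT11 and HXT8 had the lowest values, -0.48 at 1 h and -0.37 at 3 h. HXT12 has a value at 6 h only (1.63). HXT9 and HXT11, similar in sequence to each other, were at 1.72 and 0.98 at 5 h and 1.39 and -0.15 at 6 h, their largest differences; over 7 times they had r = 0.61, and 0.88 without 6 h. Among the maltose and glycerol transporters 0 of 5 passed (median slope 0.09). MPH2, an alpha-glucoside permease, was at 0.79, 3.16, 4.42 and 2.95 at 3, 4, 5 and 8 h. MPH3, a copy of it that is nearly identical in sequence, was at -0.37, -0.17, -0.41 and 0.01 then and had the second highest value of the list, 0.93, at 1 h. STL1, the glycerol carrier, was lowest of these with -2.87 at 3 h, and MAL11, a maltose permease, was at -1.29 at 6 h.

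Of the 4 genes for sugar phosphorylation, the step after uptake, 3 were below 0 h at all 7 times. HXK2, the main hexokinase on glucose, was lowest at 2 h with -3.47 (11.1-fold below), HXK1 at 1 h with -2.71 and GLK1 at 4 h with -1.82. HXK1 was at -0.92 at 8 h and GLK1 at -0.56, its highest value. EMI2 was the only one of the 4 above 0 h at any time (median slope 0.16).

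Glucose sensing genes had a median between -0.10 at 1 h and 0.45 at 8 h, and 0 of 10 passed the slope test (median slope 0.06). The sensor SNF3 was highest with 0.44 at 3 h and lowest with -1.18 at 6 h, and the sensor RGT2 lay between -0.25 and 0.67. RGT1, the repressor of HXT genes, was at 0.45 at 1 h and -1.01 at 8 h, while its corepressor MTH1 stayed between -0.49 and 0.24. YCK2, one of the casein kinases that act on Mth1, was highest with 3.67 at 6 h and had -1.50 at 2 h; YCK1 was at -1.48 at 1 h. CYC8, a general corepressor, was at 2.43 and GRR1, which targets Mth1 for destruction, at 2.41 at 6 h. At 5 and 8 h, YCK2 was at 2.34 and 1.54, CYC8 at 0.76 and 1.02, and GRR1 at 1.60 and 1.25. In the list of the Snf1 kinase and its repressors 0 of 12 passed (median slope 0.10). ELM1 and GAL83 were highest there with 2.32 and 2.12 at 6 h, beside 1.60 and 1.88 at 5 h and 1.11 and 1.15 at 8 h. NRG1, a repressor gene, was at -1.66, -2.49 and 0.61 at 5, 6 and 8 h. REG1, a phosphatase subunit, was at -1.40 at 1 h. MIG1 has a row without values, and MIG3 and SIP1 have values at 6 h only.

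Galactose genes differed among themselves while GAL2 stayed near 0 h. GAL7, the uridylyltransferase of galactose breakdown, was at 0.05, -0.51, -0.44, 2.73, 5.09, 5.46 and 4.23 in order of time. Its slope of 0.91 ± 0.20 (SE) log2 per hour missed the threshold (limma adjusted p = 0.0511). GAL1, the galactokinase gene of the same cluster, stayed between -0.38 and 0.62, and GAL10, the third gene of the cluster, between 0.92 and 2.14. GAL3, the galactose sensor, started at 1.07 at 1 h and had -2.58 at 8 h, and PGM2, a phosphoglucomutase gene, was at -2.10 at 5 h. None of the 7 genes of this list passed the slope test (median slope -0.06).

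**Figure D5:**
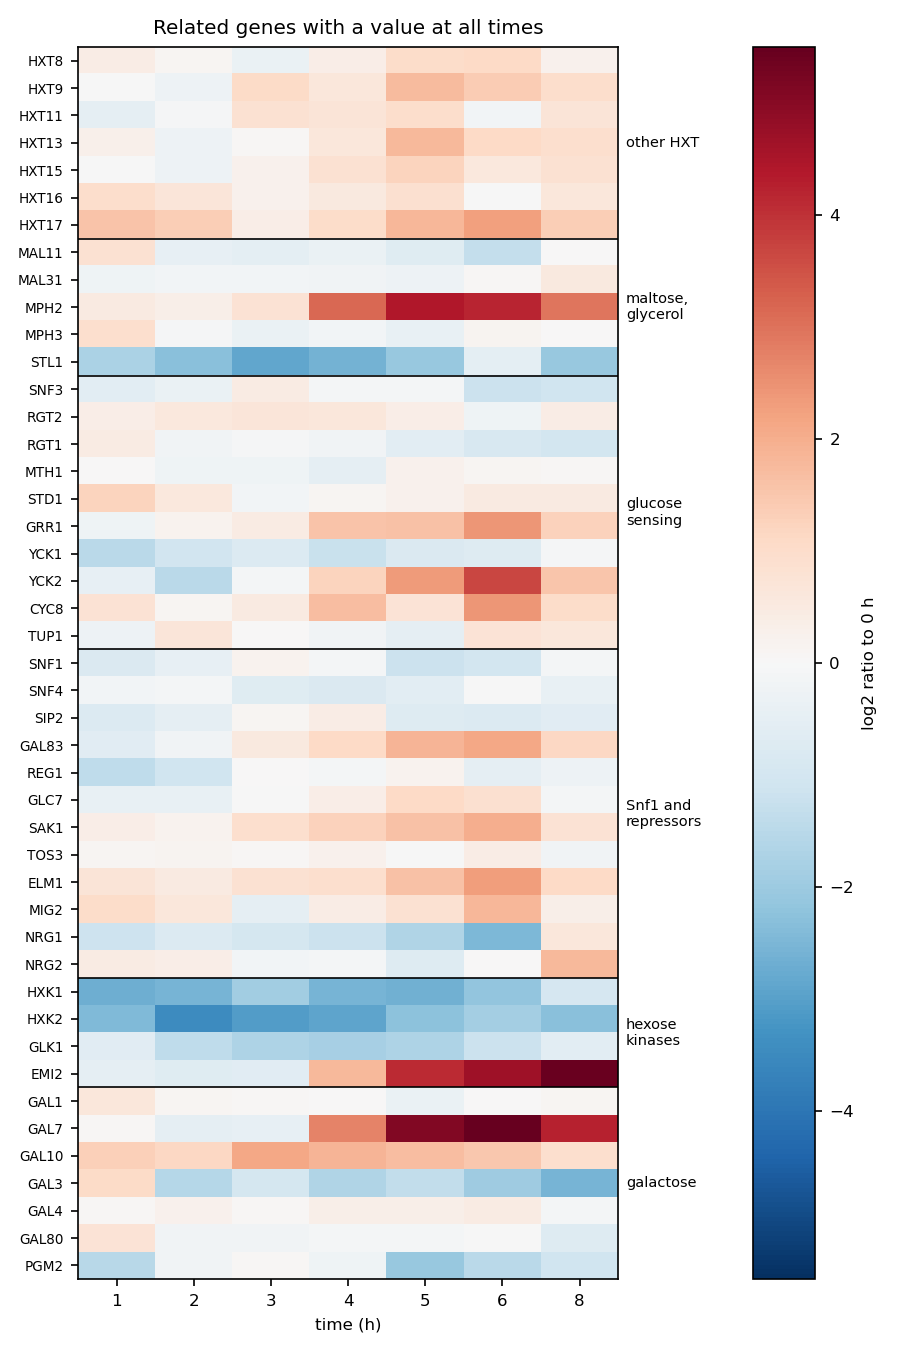
The colour gives the log2 ratio to 0 h of the 45 related genes with all values, by time in hours, in 6 lists. EMI2, GAL7 and MPH2 are the darkest red from 5 h, with 5.45, 5.46 and 4.42 at their highest, and HXK2 (-3.47) and STL1 (-2.87) are the darkest blue.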

How the data were processed

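The authors deposited 1 table of log2 ratios. Each is the ratio of a time point (Cy5) to the meiotic mixture (Cy3) relative to 0 h, as the series' design text states. All 7 arrays have 1 dye orientation per the labels' protocols. For platform, background correction, normalization and spot filters the sources used here have no entry; no intensities were analysed, and the number of arrays limits precision. The values were used as deposited. Members and lists were chosen with earlier results of these data known. Systematic names were matched to the R64 reference table (5655 of 6141 matched), and no coordinates are given since the array's build is not named.

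The slope test used limma 3.58.1 (lmFit and eBayes, R 4.3.3) with a line in hours over the 5585 rows with all values, with 5 residual degrees of freedom and Benjamini-Hochberg adjustment at 0.05. Its error starts from the scatter of each gene about that line, which eBayes moves toward a common value estimated from all rows fitted. The SE and p-value of a gene therefore do not rest on the values of that gene alone. Curved courses add to the scatter, and arrays of 1 course are not independent. The fit was also run on simulated data with independent normal noise about straight lines. Since the measured courses differ from that setting, nothing is concluded from it about error rates here. Descriptions used Python 3.11.15, pandas 2.3.3 and numpy 2.4.6, plots matplotlib 3.10.9. Named are the members, the 3 nearest courses of each (only the first where the others add little), adjacent genes, and in each list the genes past the threshold with the 2 highest and 2 lowest values; other list genes were named after their values were seen. Alternatives were median centring, quantile normalization, a 3-fold threshold, omission of 6 h, a robust prior and rows with at least 6 values. Protein identities and promoter motifs were not analysed here.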

Additional observations from a re-analysis of the deposited data

How the results depend on the processing

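Each time has 1 array, so leaving out replicates was not possible; no paired analysis was possible because the labels give no replicate numbers shared by groups. A value of a member was counted as moved where it shifted by 1.5-fold or more. None of the 69 member values moved with columns centred on their medians. After quantile normalization, which gives all columns the same distribution, 7 moved. HXT14 was then at 5.27, 6.31 and 5.01 and HXT10 at 2.62, 1.73 and 4.07 at 5, 6 and 8 h, and HXT2 at -3.17 at 6 h. No member value beyond 2-fold took the other sign. Quantile normalization gave 4 members at least 2-fold below 0 h at 3 h (2 as deposited) and 3 at 1 h (2). Above 0 h it gave 2 at 2 h (1), 2 at 5 h (3) and 3 at some time (4). At a 3-fold threshold, 0, 1, 1 and 0 members were below at 1, 2, 3 and 4 h. On the upper side 0 passed it at 2 and 3 h, and 2 at some time. The shares of all genes were not counted with quantile normalization or at 3-fold, so nothing is read from these counts. The counts of slopes past the threshold depended on the setting. Over all genes 75 rose and 40 fell as deposited, 229 and 201 after quantile normalization, 0 and 0 without 6 h (limma; 1143 at an unadjusted p under 0.05), and 16 fell with centred columns. Of the related genes 4 rose after quantile normalization (EMI2, GAL7, HXK1 and YCK2) and 0 without 6 h (11 at an unadjusted p under 0.05). EMI2 had an adjusted p between 0.00718 and 0.0658 over the settings. The correlation of HXT6 and HXT7 turned to 0.29 without 6 h and 0.11 after quantile normalization. That of HXT1 and HXT5 was 0.22 and 0.60; without 6 h, HXT5 and HXT7 had -0.29, HXT2 and HXT5 0.14, and HXT1 and HXT7 -0.50. The causes of these shifts were not tested, and the setting without 6 h also has fewer arrays. Signal over background is unknown.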

Other observations

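A pair of rows next to members by systematic name, chosen after their values were seen, have no entry in the reference table. YNL319W, numbered next to HXT14 (YNL318C), was at -1.57, 1.43, 3.40, 2.64 and 3.29 at 3, 4, 5, 6 and 8 h, and its course was nearer to that of HXT10 (RMS 1.14, r = 0.93) than to that of HXT14 (RMS 3.20, r = 0.88). YHR095W, numbered between HXT1 and HXT5, has a value at 6 h only, -1.80, when HXT1 was at -1.88 and HXT5 at -2.27.

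Pairs of closely related carriers other than HXT6 and HXT7 varied in likeness. MPH2 lay above MPH3 on 6 of 7 arrays, by up to 4.83 at 5 h. HXT15 and HXT16 differed by 0.98 at 1 h and 0.03 at 3 h, with a correlation of -0.03 over 7 times. HXT9 and HXT11 were more alike, with a correlation of 0.61 over 7 times and, without 6 h, of 0.88 and an RMS of 0.39. Whether the probes tell these copies apart was not tested.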
